A study of Saccharomyces cerevisiae with 17 samples.

Results

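The proteasome genes of lager brewing yeast were followed through a brewery propagation and a brewery fermentation. All Saccharomyces cerevisiae genes whose symbol is PRE, PUP, SCL, RPN or RPT followed by a number were taken, which gave 34 of the 5449 genes measured. The 14 PRE, PUP and SCL genes encode the core particle, and the 20 RPN and RPT genes are counted here as the regulatory particle. Of these 20 genes, 18 encode subunits, whereas RPN4 encodes a transcription activator and RPN14 an assembly chaperone. Each gene was read by 1 probe set, and none of these is of the kind that can also match other genes.

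The proteasome is the protease that degrades proteins tagged with ubiquitin. Its core is a barrel of 4 stacked rings: the outer rings hold 7 alpha subunits, which gate the entrance, and the inner rings hold 7 beta subunits, of which Pre3, Pup1 and Pre2 carry the proteolytic sites. The regulatory particle caps the barrel. In its base, 6 ATPases (Rpt1 to Rpt6) unfold the substrate, Rpn10 and Rpn13 bind ubiquitin chains, and Rpn1 and Rpn2 form the scaffold. Its lid, of 8 Rpn subunits and the small subunit Sem1, which the naming rule does not take in, contains Rpn11, which removes ubiquitin from the substrate. In S. cerevisiae most of these genes share a promoter element bound by Rpn4, a short-lived activator that the proteasome itself degrades.

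Strain CB11 was sampled from a 140 hL propagation vessel, with wort oxygenated to 7 to 8 mg/L and kept at 20 °C, and from a 3275 hL fermentation pitched with yeast that had been through earlier fermentations, whose wort was oxygenated to 25 mg/L before filling. The 6 groups are propagation at 0, 8 and 30 h with 3 arrays each, and fermentation at 8 h (3 arrays), 30 h (2 arrays, B and C) and 60 h (3 arrays). All groups were this same strain. The samples of a stage came from 1 vessel, so every p-value below measures the spread between samples drawn from that vessel, and stage cannot be told apart from vessel, yeast generation or oxygen supply. Lager yeasts carry genomes of S. cerevisiae and of a related species, and the array does not tell their transcripts apart. A level is a deposited log2 expression value, and a change is a difference between group means on that scale, tested with limma across all genes. Genes are said to be higher or lower, to rise or to fall, only where the Benjamini-Hochberg adjusted p was under 0.05.

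A group of 6 arrays, those of propagation 8 h and 30 h, differed from the other 11 over the whole genome. Pairs of these 6 had an all-gene correlation of 0.881 to 0.959, and pairs of one of them and one other array 0.369 to 0.563, and the median level of 13 meiosis and sporulation genes was 7.25 to 8.18 on them against 4.61 to 5.90 elsewhere. The hybridization controls, spiked into each sample, also read higher there, at 12.2 to 12.8 against 4.83 to 10.7. The summed level of the 13 meiosis genes was 102.4 to 109.9 on the 6 arrays and 63.8 to 81.8 on the others, and that of 11 haploid mating genes 84.7 to 89.4 against 58.6 to 72.0. Against propagation 0 h, 11 of the 13 meiosis genes were higher at 8 h and 12 at 30 h, where 24.3% and 28.6% of all genes were higher. Every comparison with propagation 8 h or 30 h rests on these arrays and cannot be given without them. Array A of propagation 0 h, fermentation 8 h and fermentation 60 h had the widest gap between the 3-prime and the 5-prime control signal, a sign of RNA quality, with 4.39, 3.10 and 3.44 log2 units. Arrays B and C of fermentation 8 h were almost the same array: their difference had a standard deviation of 0.123 over all genes.

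By 60 h of fermentation the transcripts of nearly the whole proteasome stood above their level in the yeast that entered propagation. Of the 34 genes, 31 were higher at fermentation 60 h than at propagation 0 h and none was lower, while among all genes 25.3% were higher and 15.7% lower. All 34 differences were positive, and the median was 1.09 log2 units against 0.18 for all genes. Of the called ones 22 were at least 2-fold, where 1570 of all 5449 genes were called with at least 2-fold in either direction. In 31 of the 34 genes every 60 h array lay above every 0 h array, which held for 28.5% of all genes. The genes that missed the threshold were PRE2 with 0.79, RPN11 with 0.54 and RPN4 with 0.42.

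The 13 core genes that were higher at 60 h included all 7 alpha subunits and 6 of the 7 beta subunits. PRE3, which encodes the beta-1 subunit with the caspase-like activity, was higher by 2.06 ± 0.28 (SE), 4.17-fold, with an adjusted p of 2.89e-05. PUP1 (beta-2, trypsin-like) was higher by 1.78 ± 0.35 with an adjusted p of 0.000715. PUP3 (beta-3) was higher by 1.85 ± 0.49 with an adjusted p of 0.00664, but had 6.93 on array A of propagation 0 h against 9.18 and 9.22 on B and C, and without that array its difference was 1.09. PRE1 (beta-4), PRE4 (beta-7) and PRE7 (beta-6) had differences of 1.69, 1.49 and 1.47. PRE3, PUP1 and PRE1 differed by 1.68, 1.32 and 1.35 without array A of propagation 0 h, all still called. The alpha ring lay in a narrower band, from 0.86 in PRE10 (alpha-7) to 1.37 in PUP2 (alpha-5). Between them were PRE9 (alpha-3) with 0.95, PRE8 (alpha-2) and PRE5 (alpha-6) with 1.09 each, PRE6 (alpha-4) with 1.30 and SCL1 (alpha-1) with 1.36.

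In the regulatory particle all 6 ATPases, the 4 other base genes and 7 of the 8 RPN genes of the lid were higher at 60 h. RPT5 differed by 1.78 ± 0.50 with an adjusted p of 0.00892, the ubiquitin receptor RPN10 by 1.48 ± 0.40 (0.00778) and the lid subunit RPN7 by 1.32 ± 0.32 (0.00319). These values lean on array A of propagation 0 h: RPT5 had 7.31 there against 9.52 and 9.87 on B and C, and without it RPT5, RPN10 and RPN7 differed by 0.99, 0.89 and 0.83, still called and smaller than RPN3 with 1.39 and RPN12 with 1.22. The other ATPases ranged from 0.79 in RPT6 through 0.82 in RPT2, 0.95 in RPT4 and 1.00 in RPT3 to 1.25 in RPT1. The scaffold genes RPN1 and RPN2 had differences of 1.22 and 1.06, and the ubiquitin receptor RPN13 had 1.05. The lid genes RPN3, RPN5, RPN6, RPN12, RPN9 and RPN8 had 1.21, 1.19, 1.05, 0.97, 0.81 and 0.74. The assembly chaperone RPN14 was higher by 0.73.

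In all 17 settings tried 14 genes were called: SCL1, PRE6, PUP2, PRE5, PRE10, PRE3, PUP1, PRE1, PRE7 and PRE4 of the core, and RPT1, RPN13, RPN5 and RPN6 of the regulatory particle. Without array A of propagation 0 h 27 of the 31 genes were higher and the median was 0.93. The difference shrank by more than 1.5 times in 10 genes. Besides PUP3, RPT5, RPN10 and RPN7 these were PRE4 (0.98), PRE7 (0.97), PRE8 (0.72), RPT4 (0.62), RPN1 (0.72) and RPN2 (0.52). The call was lost in PRE8, RPT4, RPN2 and RPN8. With the arrays of these 2 groups alone in the fit 16 were called. The gap between 3-prime and 5-prime control signals was 1.15 to 4.39 at propagation 0 h and 1.04 to 3.44 at fermentation 60 h. Without the 3 arrays of the widest gap 28 genes were higher, with a median of 0.92. The shares of all genes called in these settings are not given.

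**Figure D1:**
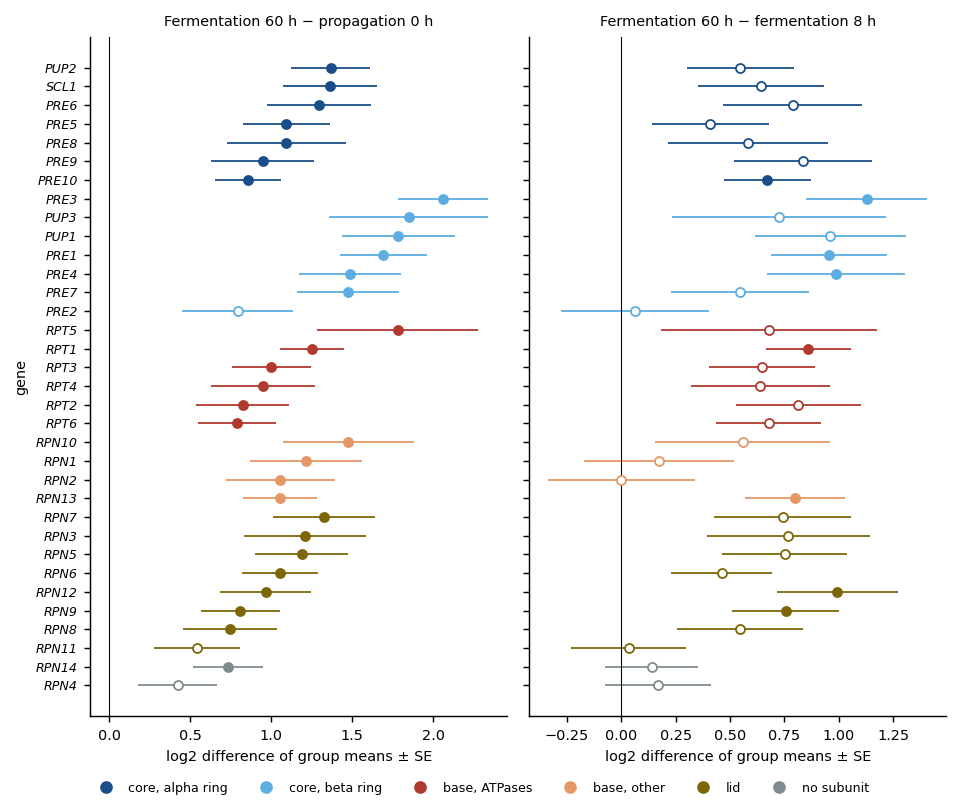
Difference in log2 expression of the 34 genes between fermentation 60 h and propagation 0 h (left) and between fermentation 60 h and fermentation 8 h (right). Points are differences of group means with their standard error, filled where the adjusted p was under 0.05, and colours give the place of the subunit; on the left 31 points are filled, on the right 8, and PRE2, RPN11, RPN1, RPN2, RPN14 and RPN4 lie near 0 on the right.

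Within the fermentation no proteasome gene was called between 8 and 30 h, and by 60 h some members of both particles had risen. From 8 to 30 h limma called none of the 34 genes and none of all 5449 genes, so 0% were higher and 0% lower, and at an unadjusted p under 0.05 none of the 34 and 189 of all genes differed. The 34 differences ran from -0.30 to 0.30. From 8 to 60 h all 34 differences were positive with a median of 0.67, against 0.08 for all genes. Of the 34, 8 rose and none fell, where 9.21% of all genes rose and 6.64% fell. In 23 of the 34 every 60 h array lay above every 8 h array, against 26% of all genes.

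The rise from 8 to 60 h was called in 4 core and 4 regulatory genes. PRE3 rose by 1.13 ± 0.28 (adjusted p 0.0115), PRE4 by 0.99 ± 0.32 (0.0431), PRE1 by 0.95 ± 0.27 (0.0229) and PRE10 by 0.67 ± 0.20 (0.032). On the regulatory side RPN12, a lid subunit, rose by 0.99 ± 0.28 (0.023), the ATPase RPT1 by 0.86 ± 0.20 (0.00683), RPN13 by 0.80 ± 0.23 (0.0261) and the lid subunit RPN9 by 0.76 ± 0.25 (0.046). PRE3 and RPT1 were the genes called under every alternative processing. With the near-identical arrays B and C of 8 h averaged into 1 sample, or without either of them, 2 genes were called, and the median rise stayed at 0.67 to 0.69. Over the alternatives 31 of the 34 genes kept 1 sign.

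From 30 to 60 h, 33 of the 34 differences were positive with a median of 0.73. The ATPase RPT1 (0.82 ± 0.22, adjusted p 0.0446) and the ubiquitin receptor RPN13 (0.97 ± 0.26, 0.0418) were called, and none fell; 2.84% of all genes rose and 1.47% fell. At an unadjusted p under 0.05, 19 of the 34 and 1122 of all 5449 genes differed. In 22 genes all 60 h arrays lay above both 30 h arrays, against 35.6% of all genes. Both calls were lost without the arrays of propagation 8 h and 30 h, and without array B or C of 30 h or array A or B of 60 h, while 27 genes were called when those 6 arrays and the 3 of widest control gap were left out together. The share of all genes called in that last setting is not given, so the count of 27 is not shown to be particular to the proteasome genes. The titles of the 8 h and 30 h fermentation samples carry a mark whose meaning is not given, and the 60 h and propagation titles do not. What it stands for cannot be told apart from the step to 60 h. The same holds for the differences of fermentation 8 h and 30 h from propagation.

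Of the 3 catalytic subunits, PRE3 rose in fermentation, while PUP1 and PRE2 were not called. PRE3 had levels of 8.67, 9.61 and 10.03 at propagation 0 h, 9.86, 9.63 and 9.46 at 8 h and 9.07, 9.57 and 9.19 at 30 h. In fermentation it had 10.40, 10.35 and 10.36 at 8 h, 10.57 and 10.27 at 30 h, and 11.45, 11.56 and 11.48 at 60 h. The 3 arrays of 60 h were the highest of all 17 and overlapped with no other group, whereas the propagation groups overlapped with each other.

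PUP1 had 8.30, 9.68 and 9.73 at propagation 0 h, 6.07, 6.39 and 6.17 at 8 h and 5.74, 5.66 and 6.14 at 30 h. In fermentation its levels were 9.57, 10.29 and 10.32 at 8 h, 10.46 and 10.27 at 30 h, and 10.48, 11.30 and 11.28 at 60 h. Its 60 h arrays were above all others, and array A was low within both the 8 h and the 60 h group. The difference from 8 to 60 h was 0.96 ± 0.35 with an adjusted p of 0.0711.

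PRE2, which encodes the beta-5 subunit with the chymotrypsin-like activity, had 8.64, 9.98 and 10.16 at propagation 0 h, 7.27, 6.72 and 7.42 at 8 h and 7.35, 6.41 and 6.86 at 30 h. In fermentation it had 10.33, 10.32 and 10.33 at 8 h, 10.18 and 10.19 at 30 h, and 10.10, 10.57 and 10.50 at 60 h. The fermentation groups overlapped, and the difference from 8 to 60 h was 0.06 ± 0.34. Whether the change of PRE3 differed from that of PUP1 or of PRE2 was not tested.

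RPN11, the deubiquitinating enzyme of the lid, had 8.90, 9.79 and 9.86 at propagation 0 h, 8.38, 8.57 and 9.00 at 8 h and 9.17, 9.12 and 9.75 at 30 h. In fermentation it had 10.09, 10.03 and 9.96 at 8 h, 10.09 and 9.96 at 30 h, and 10.12, 10.06 and 10.00 at 60 h. Its 8 fermentation arrays spanned 9.96 to 10.12 without order in time, and all lay above the 9 propagation arrays. RPN12, the lid gene with the largest called rise in fermentation, had 9.78, 9.57 and 9.56 at 8 h, 10.09 and 9.58 at 30 h, and 10.91, 10.64 and 10.33 at 60 h. Its values were 10.18, 9.36 and 9.45 at propagation 0 h, 7.19, 6.72 and 7.27 at 8 h, and 7.58, 7.59 and 8.29 at 30 h. Its 60 h arrays were the highest of the series, and array A of propagation 0 h was above all of fermentation 8 and 30 h.

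**Figure D2:**
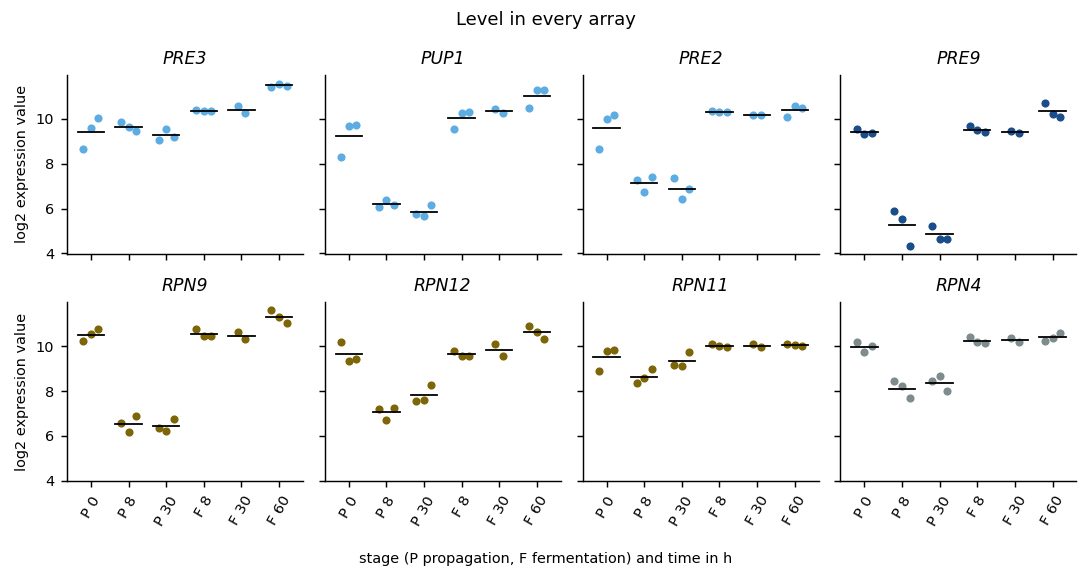
Log2 expression value in each of the 17 arrays for the catalytic core genes PRE3, PUP1 and PRE2, the core gene PRE9, the lid genes RPN9, RPN12 and RPN11 and the activator gene RPN4, by stage and time; bars are group means. PRE3 shows its step at fermentation 60 h, and with all arrays its differences from 0 h in propagation were not called. Without array A of propagation 0 h PRE3 fell by 0.55 at 30 h. PRE9 and RPN9 fall by about 4 log2 units in propagation, PRE9 to background at 30 h. RPN11 and RPN4 are level through fermentation.

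At 8 h of fermentation the proteasome genes were nearer to their level at the start of propagation. Of the 34, 7 were higher and none was lower, where 16.5% of all genes were higher and 11.5% lower, and 33 differences were positive with a median of 0.51. The higher core genes were PRE3 (0.93 ± 0.28, adjusted p 0.0201), PRE7 (0.93 ± 0.32, 0.037), PUP2 (0.82 ± 0.25, 0.0203) and PRE1 (0.74 ± 0.27, 0.0484). The higher regulatory genes were the scaffold genes RPN2 (1.06 ± 0.34, 0.0272) and RPN1 (1.04 ± 0.35, 0.033) and the chaperone RPN14 (0.59 ± 0.22, 0.0487). Over the alternatives 24 of the 34 genes kept 1 sign and the median ran from 0.27 to 0.69. None of these calls held under every alternative: 0 were left with the near-identical arrays averaged or with these 2 groups alone in the fit, 2 without array A of propagation 0 h, and 13 genes were called without array C of that group. The shares of all genes called in these settings are not given. Without array A the differences of PRE3, PRE7, PRE1, RPN2 and RPN1 were 0.55, 0.42, 0.40, 0.52 and 0.55, none of them called. Without array A, B or C of fermentation 8 h, 1, 0 and 0 were left.

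In propagation most proteasome transcripts were far lower at 8 and 30 h than at 0 h. At 8 h, 27 of the 34 genes were lower and 2 were higher, where 43.1% of all genes were lower and 24.3% higher, and the median was -2.20 against -0.44 for all genes. At 30 h, 28 were lower and 2 higher, with 38.7% and 28.6% of all genes, and the median was -1.83 against -0.25. All of these values rest on the 6 arrays that stood apart, on which meiosis and mating genes and the hybridization controls were high, and the part of those differences in the result was not tested. On bulk RNA, a lower share of cells that express a gene and less transcript per cell cannot be told apart.

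The alpha ring and the ATPases had the lowest medians. At 8 h, 6 of the 7 alpha genes were lower with a median of -2.76, and 5 of the 6 ATPase genes with a median of -2.87. PRE9 fell by 4.15 ± 0.32 at 8 h, 17.8-fold, with an adjusted p of 1.45e-08. It had 9.54, 9.34 and 9.36 at propagation 0 h, 5.89, 5.55 and 4.35 at 8 h, and 5.22, 4.66 and 4.66 at 30 h, against 9.68, 9.49 and 9.40 at fermentation 8 h, 9.48 and 9.38 at 30 h, and 10.73, 10.24 and 10.11 at 60 h. The 6 low arrays lie apart from all others. The 95th percentile of the probe sets for another species on an array served as its background level, and where a gene was under it on every array of a group a bound is given, with that percentile in place of the gene's own level. PRE9 was under it on 1 of the 3 arrays of 8 h and on all 3 of 30 h, so its fall at 30 h is a lower bound, at least 19.6-fold (adjusted p 3.77e-09). PUP3 was under it on all 3 arrays of 8 h and on 1 of 30 h, and RPN3 on 1 of 8 h.

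RPN9 fell by 3.96 ± 0.25 at 8 h (15.6-fold, adjusted p 2.46e-09) and by 4.08 ± 0.25 at 30 h. Its levels were 10.22, 10.56 and 10.75 at propagation 0 h, 6.58, 6.19 and 6.87 at 8 h, and 6.34, 6.22 and 6.74 at 30 h. In fermentation they were 10.76, 10.47 and 10.47 at 8 h, 10.63 and 10.31 at 30 h, and 11.62, 11.29 and 11.05 at 60 h. Other large falls at 8 h were PRE5 by 3.26 ± 0.27 and PUP3 by at least 7.9-fold (adjusted p 1.02e-05) in the core, and RPT1 by 3.42 ± 0.20 and RPT3 by 3.36 ± 0.24 in the base, and at 30 h SCL1 fell by 3.43 ± 0.29, PUP1 by 3.39 ± 0.35, RPT1 by 3.44 ± 0.20 and RPT3 by 3.15 ± 0.24. The fermentation arrays of RPN9 did not overlap with its low propagation arrays.

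A few subunits of the same complexes were not called lower, and most of these values depended on array A of propagation 0 h. PRE7, the beta-6 gene, was higher at 8 h by 0.80 ± 0.32 (adjusted p 0.0335) and at 30 h by 1.20 ± 0.32 (0.00284), and the scaffold gene RPN2 by 0.84 ± 0.34 (0.0355) and 0.90 ± 0.34 (0.0253). PRE7 had 9.17 on array A of 0 h against 10.58 and 10.78 on B and C, and RPN2 had 8.03 against 9.61 and 9.70. Without array A the differences were 0.29 and 0.70 for PRE7 and 0.30 and 0.36 for RPN2, and only PRE7 at 30 h, which was called in every setting, stayed past the threshold.

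PRE3 differed from 0 h by 0.21 and -0.16, RPN1 by -0.14 and 0.04, and PRE8 by -0.69 and -0.42, none of them called. RPT5 (-1.08) and RPN7 (-0.71) were not called at 8 h, and RPN11 (-0.17) was not called at 30 h. Without array A, RPT5 fell by 1.87, RPN7 by 1.20, PRE8 by 1.07 and RPN1 by 0.64 at 8 h, and PRE8 fell by 0.80 and PRE3 by 0.55 at 30 h, all past the threshold. Between 8 and 30 h RPN13 alone rose among the 34, by 0.92 ± 0.23 (adjusted p 0.0299), and none fell, where 3.08% of all genes rose and 1.93% fell. That call was lost without array B or C of 8 h, without array A or C of 30 h and with arrays recentred on the median of all genes.

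**Figure D3:**
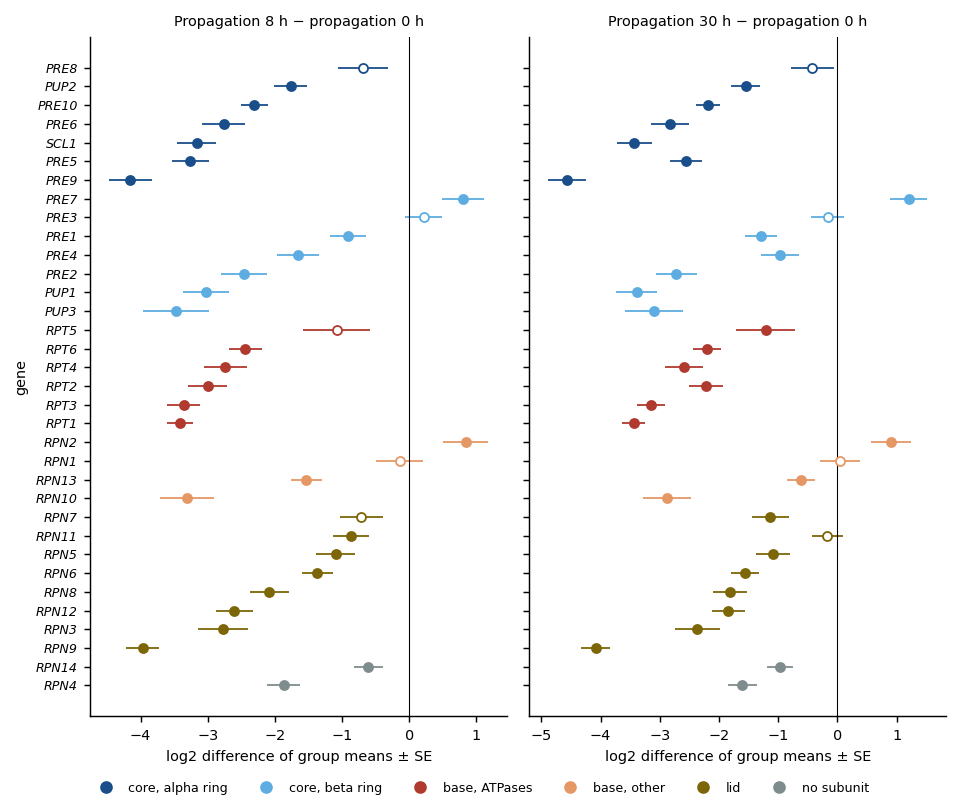
Difference in log2 expression of the 34 genes at propagation 8 h (left) and 30 h (right) from propagation 0 h, with standard errors; filled points had an adjusted p under 0.05 and colours give the place of the subunit. Most points lie between -1 and -4, while PRE7 and RPN2 lie to the right of 0 and PRE3 and RPN1 near it in both panels. PRE9 at 30 h and PUP3 at 8 h are drawn at their measured values. The bounds for these falls are smaller than drawn, at least 19.6-fold for PRE9 and at least 7.9-fold for PUP3.

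At matched times the fermentation samples were higher than the propagation samples in 32 genes at 8 h and in 31 at 30 h, and lower in none. Among all genes 44.7% were higher and 24.4% lower at 8 h, and 37.5% and 27.9% at 30 h. Large differences at 8 h were found in PRE9 (4.26 ± 0.32, with 1 of 3 propagation arrays under background), PRE5 (3.94 ± 0.27) and PUP3 (at least 17.2-fold, since all 3 propagation arrays were under background, adjusted p 3.86e-07) of the core and in RPN10 (4.23 ± 0.40), RPN9 (4.02 ± 0.25) and RPT1 (3.81 ± 0.20) of the regulatory particle. At 30 h they were found in PUP1 (4.52 ± 0.39), PUP3 (4.45 ± 0.55, with 1 of 3 propagation arrays under background), PRE9 (at least 19.9-fold, with all 3 under background, adjusted p 1.52e-08), RPN9 (4.04 ± 0.28), RPT1 (3.88 ± 0.22) and RPN10 (3.78 ± 0.45). PRE7 and RPN2 were called at neither time, with 0.13 and 0.21 at 8 h and -0.09 and 0.32 at 30 h, and RPN11 with 0.68 was not called at 30 h. Here too the propagation arrays are the 6 that stood apart. Whether the step from 8 to 30 h differed between the stages was tested with an interaction term in limma. It called none of the 34 genes, with 0.128% of all genes higher and 0.147% lower in fermentation. An unadjusted p under 0.05 was found in 3 of the 34 and in 598 of all 5449 genes.

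Within the fermentation the core and the regulatory particle had near-equal median changes. From 8 to 60 h the median change was 0.70 in the 14 core genes and 0.66 in the 20 regulatory genes, from 30 to 60 h it was 0.73 and 0.72, and from 8 to 30 h -0.01 and -0.02. The other comparisons separated them more. From propagation 0 h to fermentation 60 h the core median was 1.36 and the regulatory median 1.03, and to fermentation 8 h 0.72 and 0.41. From propagation 0 h to 8 h the medians were -2.38 and -1.98, and to 30 h -2.37 and -1.71. At matched times, fermentation against propagation, they were 2.88 and 2.23 at 8 h and 2.62 and 2.00 at 30 h. The comparisons with propagation 0 h include its array A, and the medians of the core and the regulatory particle without it are not given.

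The distance between the medians was read against single arrays. For each array the median deviation of the genes from the mean of their 6 group means was taken in the core and in the regulatory particle, and the difference had a standard deviation within groups of 0.266. It was -0.55, 0.22 and 0.28 on arrays A, B and C of propagation 0 h, and 0.03 to 0.35 on the 8 fermentation arrays. Arrays B and C of propagation 0 h thus lay within the range of fermentation and array A outside it. At propagation 8 h it was -0.24, -0.64 and 0.07, and at 30 h -0.25, -0.66 and -0.28. The difference of -0.40 at propagation 8 h shrank to -0.12 when RPN4 and RPN14, which encode no subunits, were left out, to -0.14 with means in place of medians and to -0.13 without array B of that time.

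**Figure D4:**
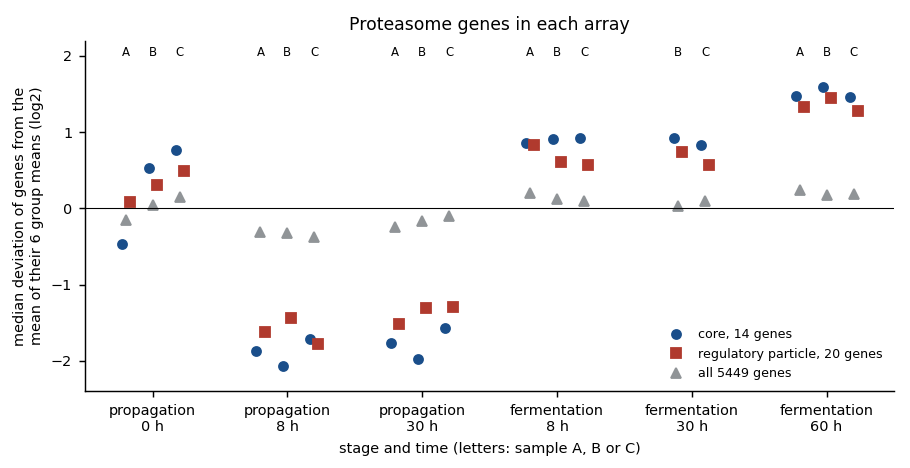
Median deviation of the 14 core genes (circles), the 20 regulatory genes (squares) and all 5449 genes (triangles) from the mean of each gene's 6 group means, on the log2 scale, for every array by stage and time. The 3 arrays of fermentation 60 h hold the highest proteasome medians, the 6 arrays of propagation 8 h and 30 h the lowest, and core and regulatory medians run together in fermentation.

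RPN4, whose product activates the proteasome genes, was called within propagation and not within fermentation. Its levels were 10.20, 9.74 and 10.02 at propagation 0 h, 8.44, 8.22 and 7.67 at 8 h, and 8.47, 8.68 and 8.00 at 30 h. In fermentation they were 10.40, 10.19 and 10.13 at 8 h, 10.35 and 10.20 at 30 h, and 10.25, 10.38 and 10.60 at 60 h. Its fermentation groups overlapped, with a difference of 0.17 ± 0.24 from 8 to 60 h (adjusted p 0.707), and it was not called from 30 to 60 h (0.13 ± 0.27, adjusted p 0.837). In propagation RPN4 fell by 1.87 ± 0.24 at 8 h (adjusted p 4.15e-06) and by 1.60 ± 0.24 at 30 h (1.97e-05). An array measures its transcript, not the protein.

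Of 6 regulators tied to RPN4, 5 rose from 8 to 60 h of fermentation, where 9.21% of all genes rose. The largest rises were in MUB1 by 2.33 ± 0.22 (adjusted p 8.31e-06) and in UBR2 by 1.67 ± 0.22 (9.14e-05), which encode the partner protein and the ubiquitin ligase that mark Rpn4 for degradation, and in PDR1 by 1.85 ± 0.24 (0.000106), an activator of drug resistance genes. HSF1, the heat shock factor, rose by 1.14 ± 0.29 (0.0132), and YAP1, the oxidative stress activator, also rose. PDR3 was not called (0.08 ± 0.22). Pdr1, Pdr3, Hsf1 and Yap1 are known to bind the RPN4 promoter. At fermentation 60 h against propagation 0 h the same count, 5 of 6, was higher, beside 25.3% of all genes, with UBR2 at 2.05 ± 0.22, YAP1 at 1.57 ± 0.34, HSF1 at 1.41 ± 0.29 and MUB1 at 1.30 ± 0.22. On array A of propagation 0 h YAP1 had 7.48 against 8.82 and 9.09 on B and C, while HSF1 had 8.68 against 8.00 and 8.16. The median of the 6 genes from 8 to 60 h was 1.40, beside 0.08 for all genes. Against propagation 0 h, 3 of the 6 were higher and 3 lower at propagation 8 h (24.3% and 43.1% of all genes). At propagation 30 h 3 were higher and 2 lower (28.6% and 38.7%). In fermentation against propagation at 8 h, 2 were higher and 3 lower (44.7% and 24.4%). These counts rest on the arrays that stood apart.

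Proteins that build the proteasome or bind to it formed a list of 16 genes, of which 7 rose and none fell from 8 to 60 h of fermentation (9.21% and 6.64% of all genes), with a median of 0.70. Among them ECM29, a proteasome adaptor, rose by 1.80 ± 0.33, the core activator BLM10 by 1.62 ± 0.35, the core maturation factor UMP1 by 1.46 ± 0.27 and the proteasome-bound deubiquitinating enzyme UBP6 by 1.15 ± 0.22. Against propagation 0 h, 11 of the 16 were higher at 60 h (25.3% of all genes), with BLM10 at 1.71, TMA17, a chaperone of base assembly, at 1.62, ECM29 at 1.33 and UMP1 at 1.31. Array A of propagation 0 h was low in BLM10, with 7.27 against 8.72 and 8.92 on B and C. It was high in ECM29, with 9.24 against 7.75 and 8.14. Differences without that array are not given for the genes of this list. At propagation 8 h, 10 of the 16 were lower than at 0 h and 2 were higher (43.1% and 24.3% of all genes), with TMA17 falling by 3.24 ± 0.30 and SPG5, under background on 1 of 3 arrays, by 3.14 ± 0.29, while NAS2, a base chaperone, was higher by 1.45. SEM1, named because it is the lid subunit outside the naming rule, was not called at 8 h (0.73) and was higher at 30 h by 1.38. It had 11.75 on array A of propagation 0 h against 10.06 and 10.08 on B and C.

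The ubiquitin and Cdc48 list of 19 genes covers ubiquitin itself, enzymes that attach it and factors that carry substrates to the proteasome. From 8 to 60 h of fermentation 6 rose and none fell (9.21% and 6.64% of all genes), with a median of 0.41. OTU1, a deubiquitinating enzyme that works with Cdc48, rose by 1.64 ± 0.26, the Cdc48 cofactor NPL4 by 1.60 ± 0.21, the conjugating enzyme UBC5 by 1.47 ± 0.39 and the polyubiquitin gene UBI4 by 1.18 ± 0.26. Against propagation 0 h 15 of the 19 were higher at 60 h (25.3% of all genes), among them OTU1 by 2.67, the shuttle genes DDI1 by 2.21 and DSK2 by 2.00, and NPL4 by 1.82. Array A of propagation 0 h was low in OTU1, with 6.09 against 7.08 and 6.93 on B and C. DDI1, DSK2 and NPL4 were also lower on array A than on B and C, so these differences lean on it. It was high in UBA1 of the same list, with 10.35 against 9.47 and 9.88. Differences without array A are not given for the ubiquitin and Cdc48 list. At propagation 8 h 11 were lower and 2 higher than at 0 h (43.1% and 24.3% of all genes), and UBI4, under background on 1 of 3 arrays, fell by 4.65 ± 0.26 and the conjugating enzyme UBC1 by 2.87 ± 0.24.

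How closely each gene followed the rest was described by its correlation with the median of the other members. It was taken over the 11 arrays of propagation 0 h and of fermentation. These arrays differ in group means and in array quality, so each value also reflects those differences. PRE3 had the highest value, 0.986, ahead of SCL1 with 0.982 and PRE6 with 0.975, and the ATPases RPT1 and RPT3 had 0.968 and 0.966. The lowest were RPN4 with 0.563, RPN12 with 0.588, RPN14 with 0.617, RPN2 with 0.628 and RPT2 with 0.651. Over the 6 groups 33 of the 34 genes had their highest mean at fermentation 60 h, and RPN2 had its highest at fermentation 30 h. The lowest mean was at propagation 8 h in 19 genes, at propagation 30 h in 13, and at propagation 0 h in the other 2, PRE7 and RPN2.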

How the data were processed

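RNA was hybridized to Affymetrix yeast arrays, and the authors deposited log2 expression values, made with RMA per the submitters' processing notes. Which arrays were normalized together is not given in the sources used here. The values ran from 2.17 to 14.07. Probe sets listed with an S. cerevisiae gene were kept, and a gene with several was represented by the one of highest mean, which gave 5449 genes with no filter on low values. The number of arrays limits the precision.

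A linear model in limma 3.58.1 under R 4.3.3 (lmFit, eBayes) held 1 mean for each of the 6 groups and used all 17 arrays. Tests were two-sided and p-values adjusted over all genes of a contrast. The fit was tested on simulated data. Replicate letters were not used to pair arrays in this fit. The residual correlation of 40 same-letter pairs ran from -0.152 to 0.777, and 14 were over 0.1. Pairs of different letters were not set beside them, so whether the letters pair arrays was not tested. The proteasome genes and lists were chosen with earlier results of these data known. Every proteasome gene is named, with the 3 largest called changes of core and regulatory particle per direction and up to 4 genes of each other list. Alternatives changed filtering, scaling, the arrays fitted and the model. Most counts of called genes under an alternative are given without the share of all genes called in that setting. Those that leave out the 6 arrays of propagation 8 h and 30 h, or these and the 3 of widest control gap, were chosen after seeing the data. Gene sequences were not used here.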

Additional observations from a re-analysis of the deposited data

How the results depend on the processing

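Counts below are of the 34 proteasome genes called. All-gene counts are given beside them only for some comparisons with recentred arrays. A count that changed with the setting is therefore not shown to be particular to these genes. Array weights ran from 0.0627 on array A of propagation 0 h to 11.2 on array B of fermentation 8 h. From propagation 0 h to fermentation 60 h all 34 differences were positive under all 17 settings, with a median between 0.89 and 1.31. The number of genes that kept 1 sign under every setting was 31 for 60 h against 8 h, 29 for 60 h against 30 h, 24 for fermentation 8 h against propagation 0 h and 22 for propagation 30 h against 8 h. With only the arrays of the groups compared, the count for fermentation 60 h against propagation 0 h went from 31 to 16, 60 h against 8 h from 8 to 20, 60 h against 30 h from 2 to 13, fermentation 8 h against propagation 0 h from 7 to 0, and propagation 30 h against 8 h from 1 to 0. Array weights gave 30, 26 and 11 for 60 h against 8 h, 60 h against 30 h and fermentation 8 h against propagation 0 h, and 2 for the interaction (0). Recentred arrays gave 0 for 60 h against 30 h and for propagation 30 h against 8 h. Quantile normalization gave 0 for 60 h against 30 h and 4 for fermentation 8 h against propagation 0 h. The replicate block gave 2 for propagation 30 h against 8 h, 11 for 60 h against 8 h and 31 for 60 h against propagation 0 h. The trend and robust setting gave 1 for 60 h against 30 h. Without the 3 arrays of lowest 5-prime signal the counts were 5 (propagation 30 h against 8 h), 9 (60 h against 30 h) and 2 (fermentation 8 h against propagation 0 h), and with the control gap as covariate 3, 7 and, for 60 h against 8 h, 15. Averaging fermentation 8 h B and C gave 2 for 60 h against 8 h and 0 for fermentation 8 h against propagation 0 h. Without the 6 arrays that stood apart 60 h against 30 h gave 0 and fermentation 8 h against propagation 0 h 2, and without these and the 3 arrays 60 h against 8 h gave 28, 60 h against 30 h 27 and fermentation 8 h against propagation 0 h 12. Leaving out 1 array gave 2 to 6 for 60 h against 8 h, 0 to 1 for 60 h against 30 h, 0 to 13 for fermentation 8 h against propagation 0 h and 0 to 1 for propagation 30 h against 8 h. The core minus regulatory difference at propagation 8 h against 0 h moved from -0.40 to -0.12 without RPN4 and RPN14 and to -0.14 with means, and ran from -0.59 to -0.13 with 1 array left out; with means it was -0.30 at propagation 30 h against 0 h and 0.34 at fermentation against propagation 8 h. PRE3 in that last comparison turned from 0.72 to -0.13 under quantile normalization (adjusted p 0.653). Recentring moved the split of all genes from 502 higher and 362 lower to 386 and 470 for 60 h against 8 h, from 1380 and 856 to 1090 and 1097 for 60 h against propagation 0 h, from 155 and 80 to 83 and 150 for 60 h against 30 h, and from 168 and 105 to 67 and 143 for propagation 30 h against 8 h, with 6, 27, 0 and 0 proteasome genes higher and none lower. Causes were not tested. Without raw intensities, background is known only through probe sets of another species, which limits PRE9, PUP3 and RPN3 in propagation.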
